A study of Mus musculus with 2 samples.

Results

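The miR-30 family is described here through its 6 hairpins Mir30a, Mir30b, Mir30c-1, Mir30c-2, Mir30d and Mir30e, chosen by name among 2202 annotated hairpins and matched by Ensembl gene identifier. Mature microRNAs are cut out of such folded RNAs, and each count is a short RNA read placed on one of them. Reads came from hearts of B6CASTF1/J females, crosses of laboratory strain C57BL/6J with wild-derived strain CAST/EiJ. The 2 animals were 25 days old and are given in the labels as biological replicates 1 and 2 of a single group. The labels number the animals separately but carry 1 donor identifier, so the spread between replicates is that between animals only on this reading, and a free-text label gives the age in months. No treatment, mutant allele or second group is named, so the only comparison is between the 2 libraries.

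The family is defined by a shared seed, the stretch near the 5′ end of a mature microRNA that pairs with target messenger RNAs. Its members are broadly expressed, are found in heart muscle cells, and are known to restrain connective tissue growth factor, a matrix signal, and Beclin 1, a starter of autophagy. In the mouse genome they lie as neighbouring pairs at 3 places, and the hairpins of a pair may come from a common primary transcript.

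Library depth was 5005996 reads in replicate 1 and 6452546 in replicate 2, of which 41.0% and 41.2% were assigned to hairpins. Reads matching several places, kept in a row of their own outside the hairpins, made up 38.5% and 41.6%. Among the defining microRNAs of heart muscle, Mir208a had 3322 and 15598 counts and Mir499 had 5391 and 6167, while none of the Mir1a and Mir133a hairpins passed 94 counts. Reads that match both hairpins of Mir1a, or both of Mir133a, would lie outside these counts, and how many did was not tested. Tissue was bulk, so fewer cells of a type and less RNA per cell cannot be told apart in any value below.

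The mature sequences show what the family shares and where its members part. RefSeq sequences on GRCm38.p6 matched 4 of the 6 members by symbol: Mir30a, Mir30c-1, Mir30c-2 and Mir30e. Printed 5′ to 3′ with the seed (bases 2 to 8) in capitals, the arms cut from the 5′ side of these hairpins, and that of a further locus with the same seed, Mir384, are:
miR-30a-5p: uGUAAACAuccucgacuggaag
miR-30e-5p: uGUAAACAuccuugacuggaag
miR-30c-5p: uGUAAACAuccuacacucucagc
miR-384-5p: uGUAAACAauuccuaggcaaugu

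Of 1738 mature arms in the RefSeq table, 5 carry GUAAACA at bases 2 to 8, and they come from these 4 members and Mir384. Mir30b and Mir30d had no match by symbol, so their arms are not in this count and were not compared. Counting positions from 1 at the 5′ end, miR-30e-5p differs from miR-30a-5p by the single substitution C13U. From miR-30a-5p to miR-30c-5p there are 5 substitutions over 22 bases, C13A, G14C, G18C, G19U and A20C, all in the later part of the molecule. Seed and the bases up to position 12 are therefore common to the 3 sequences, and differences begin at base 13.

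The arms cut from the 3′ side carry other seeds and are shown because they are where the Mir30c loci can be told apart:
miR-30a-3p: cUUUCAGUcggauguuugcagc
miR-30e-3p: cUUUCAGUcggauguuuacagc
miR-30c-1-3p: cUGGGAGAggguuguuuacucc
miR-30c-2-3p: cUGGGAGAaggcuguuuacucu

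Between miR-30a-3p and miR-30e-3p the only substitution is G18A. Between miR-30c-1-3p and miR-30c-2-3p there are 3, namely G9A, U12C and C22U. By contrast, miR-30c-5p is the same 23 bases in both loci, and it was the only one of these arms to be found whole in 2 hairpins of the table. The Mir30c-1 and Mir30c-2 hairpins, with that shared arm in capitals, read as follows:
Mir30c-1: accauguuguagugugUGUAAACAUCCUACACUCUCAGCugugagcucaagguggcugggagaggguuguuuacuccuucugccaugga
Mir30c-2: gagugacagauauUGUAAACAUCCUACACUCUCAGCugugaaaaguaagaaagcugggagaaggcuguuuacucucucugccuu

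These hairpins share a run of 28 bases, while the longest run shared by Mir30a and Mir30e is 18 bases. By its letters alone, a read of the whole miR-30c-5p cannot be given to a single locus. The tables keep reads that match several places apart from the hairpins, and whether reads of this arm are among them was not tested. The place of Mir30c-1 and Mir30c-2 in the order of the family holds for the counted reads only.

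On mm10 with GENCODE M21, Mir30a lies on chromosome 1 (plus strand) from 23272269 to 23272339, and Mir30c-2 follows 19361 bp downstream, from 23291701 to 23291784. Mir30a overlaps no other annotated gene, and Mir30c-2 overlaps an exon of the long non-coding RNA Gm27028. Mir30b, from 68337415 to 68337510, and Mir30d, from 68341208 to 68341289, lie 3697 bp apart on the minus strand of chromosome 15. Mir30b overlaps an exon of the non-coding gene Gm26621 only in part, since that gene reaches only to 68337430. Mir30d overlaps exons of Gm37296, again in part (to 68341216), and of Gm20732. These genes lie on the same strand as the hairpins. Mir30c-1, from 120769534 to 120769622, and Mir30e, from 120772606 to 120772697, lie 2983 bp apart on the minus strand of chromosome 4. Both sit in an intron of Nfyc, on its strand, a gene for a subunit of the NF-Y factor that binds CCAAT boxes.

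All 6 hairpins had at least 421 counts in each heart, and 3 of them supplied nearly all of the family's counted reads. Mir30d led, Mir30a and Mir30e followed, and Mir30c-2, Mir30c-1 and Mir30b were far below. The family held 4.61% of hairpin counts in replicate 1 (94518 counts) and 2.62% in replicate 2 (69701 counts). These shares leave out reads that match several places, and how many of those belong to the Mir30c hairpins was not tested. In the paragraphs below, levels are CPM, counts scaled to a hairpin total of 1000000 in each library, means are given with SD and n = 2, and intervals are 95% intervals that cover counting error only.

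Mir30d had 51763 counts in replicate 1 and 32261 in replicate 2, or 25244 and 12123 CPM, a mean of 18684 ± 9278 (SD, n = 2). It ranked 12 and 15 among all hairpins of the respective library and gave 54.8% and 46.3% of the family's counts. Replicate 1 was the higher library, and the Wilson intervals of 25030 to 25460 CPM and 11992 to 12255 CPM lay far apart.

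Mir30a, known to act on Beclin 1, had 25030 and 21072 counts, or 12207 and 7919 CPM, a mean of 10063 ± 3032 (SD, n = 2). Mir30e, its near-twin in sequence, had 14862 and 12616 counts, or 7248 and 4741 CPM, a mean of 5994 ± 1773 (SD, n = 2). Both were higher in replicate 1, and they ranked 18 and 22 there against 19 and 30 in replicate 2.

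Mir30c-2 had 1778 and 2110 counts, or 867 and 793 CPM, a mean of 830 ± 52.5 (SD, n = 2). Mir30c-1 had 664 and 895 counts, or 324 and 336 CPM, a mean of 330 ± 8.84 (SD, n = 2). These 2 hairpins, which share their 5p arm, had the smallest spread of the family relative to the mean, 6.32% and 2.68%, against 49.7% for Mir30d. That of Mir30c-1 depended on the scaling: with TMM, introduced below, the values were 4.96% for Mir30c-2, 13.9% for Mir30c-1 and 39.5% for Mir30d.

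Mir30b was the lowest member, with 421 and 747 counts, or 205 and 281 CPM, a mean of 243 ± 53.3 (SD, n = 2). It ranked 111 in replicate 1 and 94 in replicate 2, although its neighbour Mir30d was the highest of the family. Its Wilson intervals, 187 to 226 CPM and 261 to 302 CPM, did not overlap, and here replicate 2 was the higher library.

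The order Mir30d, Mir30a, Mir30e, Mir30c-2, Mir30c-1, Mir30b was found in each library. Per base of annotated hairpin the same order held, with mean levels of 228, 142, 65.2, 9.88, 3.71 and 2.53 CPM per base. A mature microRNA read does not grow with the length of its hairpin, so the level per base is no correction and is given only as an alternative to CPM. In CPM, Mir30d and Mir30a overlapped between animals, since Mir30d in replicate 2 (12123 CPM) lay below Mir30a in replicate 1 (12207 CPM). At the other 4 steps of the order the animals did not overlap in CPM. An exact permutation of 2 values against 2, which ignores that both hairpins come from the same libraries, cannot give p below 0.333. Which steps overlapped depended on the scaling. With TMM, Mir30d in replicate 2 (13130.5) lay above Mir30a in replicate 1 (11270.3), without overlap. Mir30b in replicate 2 (304) then lay above Mir30c-1 in replicate 1 (299), so these hairpins overlapped. The widest step was that from Mir30e to Mir30c-2, 8.36-fold in replicate 1 and 5.98-fold in replicate 2.

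**Figure D1:**
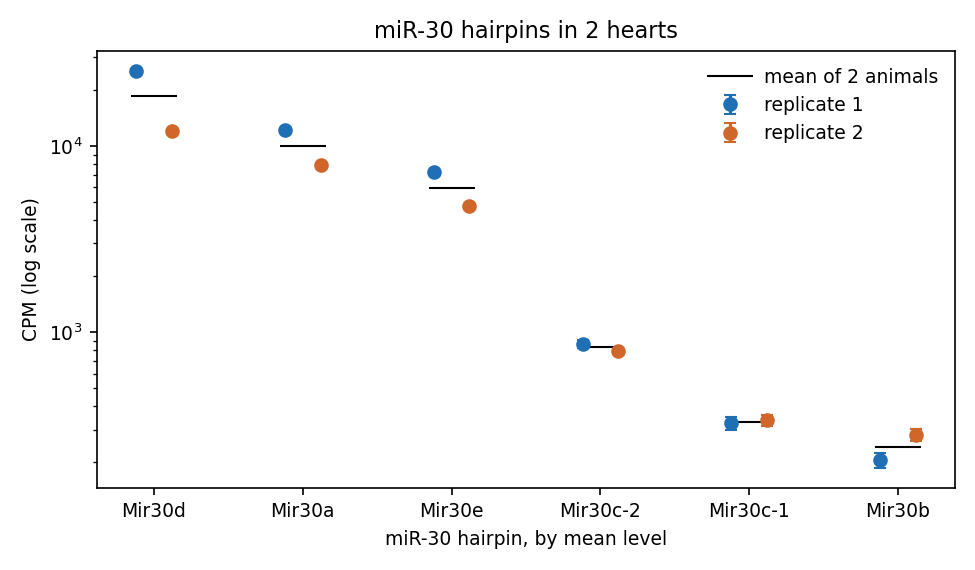
CPM on a log scale for each miR-30 hairpin, ordered by mean level, with 1 point per animal, its 95% Wilson interval and a bar at the mean. Mir30d, Mir30a and Mir30e lie at or above 4741 CPM and the other 3 below 1000 CPM in both animals. Replicate 1 is the higher point for the first 4 hairpins and replicate 2 for Mir30c-1 and Mir30b.

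Other hairpins with a related sequence were next to absent. Mir384, on chromosome X from 105344282 to 105344369, had 2 and 0 counts, at or under the floor of 3 counts that a count of 0 allows (1.46 and 1.13 CPM). Mir30f is annotated on the opposite strand at the position of Mir30e and had 0 and 2 counts on its own strand. Reads at this place were thus nearly all on the Mir30e strand, which had 14862 and 12616. In the column counted without regard to strand, both Mir30e and Mir30f stood at 0, and 609641 and 768383 reads of all hairpins were listed as ambiguous, against 0 in the stranded column.

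In counted reads, the 3 genomic pairs differed in size, and each had 1 dominant hairpin. Mir30d with Mir30b supplied 55.2% of the family in replicate 1 and 47.4% in replicate 2, a mean of 51.3% ± 5.55 (SD, n = 2). Mir30a with Mir30c-2 supplied 28.4% and 33.3%, a mean of 30.8% ± 3.46. Mir30e with Mir30c-1, the pair within Nfyc, supplied 16.4% and 19.4%, a mean of 17.9% ± 2.09. The pairs kept this order in both hearts, and none of their ranges overlapped. Reads that match several places are left out of these shares. How far they would change the size of the 2 pairs with a Mir30c hairpin was not tested.

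Within a pair, the partners were far from equal. Mir30d exceeded Mir30b 123-fold in replicate 1 and 43.2-fold in replicate 2. Mir30e exceeded Mir30c-1 22.4-fold and 14.1-fold. For Mir30a over Mir30c-2 the ratios were 14.1 and 9.99. The ratios of the last 2 pairs describe counted reads, given the arm that the Mir30c hairpins share, and not the amounts cut from each transcript.

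In all 3 pairs the lower partner held a larger share of its pair in replicate 2, a comparison that needs no scaling between libraries. Mir30b rose from 0.807% of its pair (exact interval 0.732 to 0.887) to 2.26% (2.11 to 2.43). Mir30c-1 rose from 4.28% (3.96 to 4.61) to 6.62% (6.21 to 7.06). Mir30c-2 rose from 6.63% (6.34 to 6.94) to 9.10% (8.73 to 9.48). The shares of Mir30c-1 and Mir30c-2 cover counted reads only. Reads that match several places, 38.5% of replicate 1 and 41.6% of replicate 2, are outside them.

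The size of the shift differed among pairs, and each was larger than the counting error. The odds of the lower partner were 2.85 times higher in replicate 2 for Mir30b (interval 2.52 to 3.21, two-sided Fisher's exact test, Benjamini-Hochberg adjusted over 3 pairs, p = 3.78e-68). They were 1.59 times higher for Mir30c-1 (1.43 to 1.76, adjusted Fisher's exact p = 1.07e-18) and 1.41 times higher for Mir30c-2 (1.32 to 1.51, adjusted Fisher's exact p = 1.77e-24). What is tested here is a pair of libraries and no condition, and PCR copies of a molecule, which were not told apart, make its p-values too small.

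**Figure D2:**
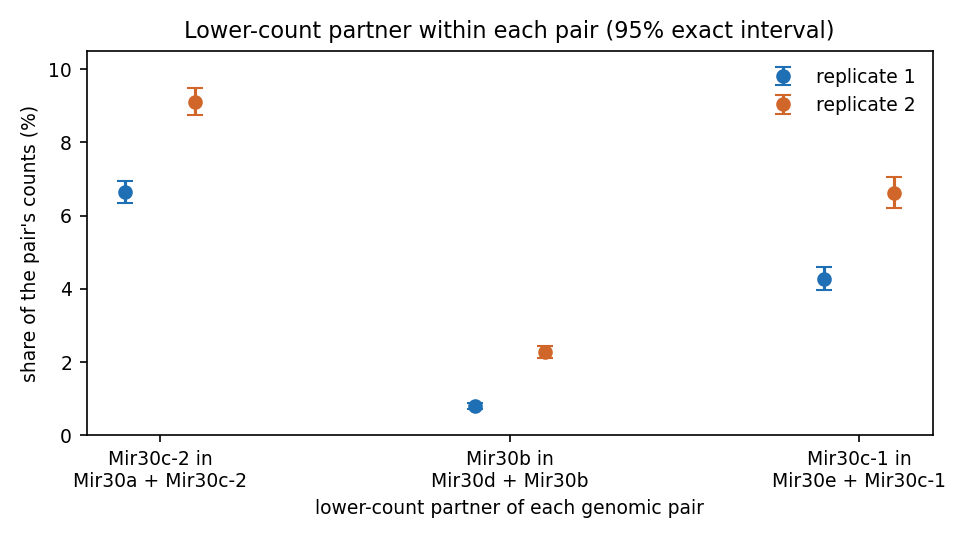
Share of each pair's counts that came from its lower-count partner, in percent, with 1 point per animal and its 95% exact binomial interval. All 3 shares are higher in replicate 2, with 9.10% against 6.63% for Mir30c-2, 2.26% against 0.807% for Mir30b and 6.62% against 4.28% for Mir30c-1.

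Ratios between hairpins on different chromosomes were also compared, after the values had been seen and as a description only. Mir30a and Mir30e, whose 5p arms differ by C13U alone, stood in a ratio of 1.68 in replicate 1 and 1.67 in replicate 2. The log2 change of this ratio was -0.01 (interval -0.06 to 0.03), the smallest of the 15 pairs of members. Mir30c-2 and Mir30c-1, which share their 5p arm, stood at 2.68 and 2.36, a log2 change of -0.18 (-0.35 to -0.01), the next smallest. Both of these combinations join hairpins of different chromosomes, while the 3 pairs of genomic neighbours changed by 0.50, 0.67 and 1.51 in size. For the Mir30c hairpins only counted reads are compared, and whether these include reads of the shared arm was not tested.

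Taken by level, the 3 higher hairpins changed relative to each other by 0.01 to 0.45 (log2, size of the change) and the 3 lower ones by 0.18 to 0.58. The 9 combinations of a higher with a lower hairpin changed by 0.48 to 1.51, with a median of 0.93. Every one of the 9 moved towards the lower hairpin in replicate 2. The 6 values behind these 15 ratios are the same counts, so the ratios are not independent of each other.

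**Figure D3:**
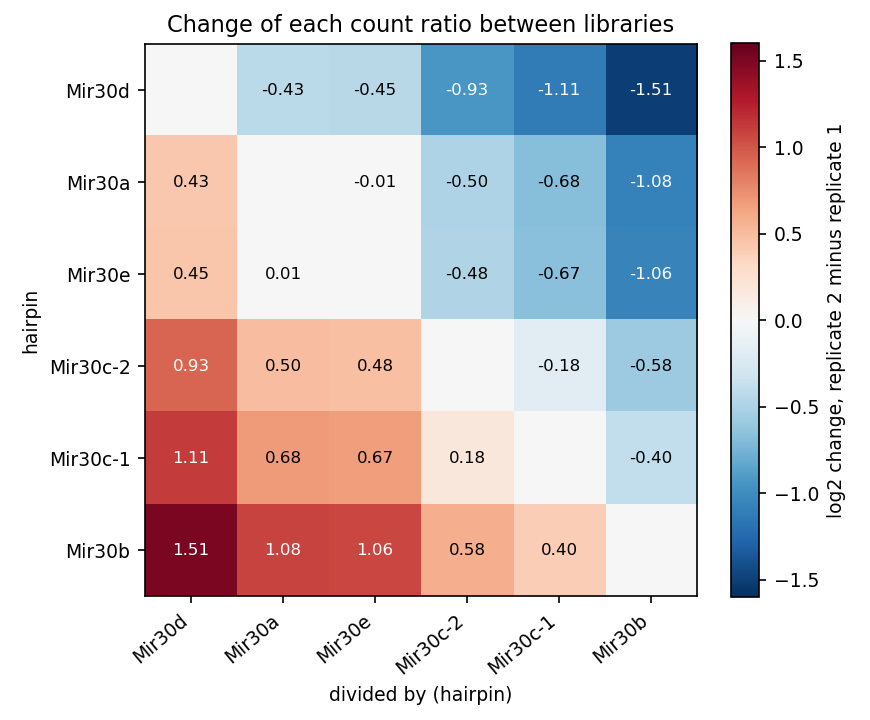
Log2 change, replicate 2 minus replicate 1, of the count ratio of the hairpin in each row to the hairpin in each column, with blue for a fall and red for a rise. Mir30a against Mir30e is near white at -0.01, and the darkest cells are Mir30d against Mir30b at -1.51.

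Against the rest of the hairpins, the libraries were compared with TMM scaling, which balances a trimmed and weighted mean of the log2 ratios. An exact two-sided binomial test followed, with Benjamini-Hochberg adjustment over 326 hairpins, those that reached 10 counts in either library. Of these, 62.6% passed at an adjusted p under 0.05, 36.2% higher and 26.4% lower in replicate 2. All 6 members of the family were tested and 6 passed, 3 higher and 3 lower, in a setting where most hairpins pass; Mir30c-2, among the 3 higher, changed sign with the scaling. Log2 ratios of replicate 2 over replicate 1, on the scale of TMM-scaled CPM plus 1, had a median of -0.14 over the members and 0.09 over all tested hairpins.

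Mir30d fell furthest, with a log2 ratio of -0.83 (interval -0.85 to -0.81). Mir30a and Mir30e were lower at -0.39 (-0.42 to -0.37) and -0.38 (-0.42 to -0.35). Their adjusted exact binomial p-values were 1.79e-187 and 1.37e-105. The intervals of Mir30a and Mir30e overlapped each other and not that of Mir30d.

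Mir30b was higher in replicate 2 at 0.68 (0.51 to 0.86, adjusted exact binomial p = 1.18e-14). Mir30c-1 stood at 0.28 (0.14 to 0.43, adjusted exact binomial p = 0.000263) and Mir30c-2 at 0.10 (0.01 to 0.19, adjusted exact binomial p = 0.0487). The order of the ratios, from Mir30d up to Mir30b, was the reverse of the order of levels. Over all tested hairpins the median ratio was 0.04 for the 187 under 100 CPM and 0.29 for the 18 with at least 10000 CPM, so the inverse order of the members was not seen over all hairpins.

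Scaling decided the sign of 1 member and the call of 2. With total counts in place of TMM, the median of all hairpins moved from 0.09 to -0.14, and calls went from 118 higher and 86 lower to 76 higher and 117 lower. Mir30c-2 then stood at -0.13 (adjusted exact binomial p = 0.0110) and Mir30c-1 at 0.05 (adjusted exact binomial p = 0.551). With a minimum of 50 counts there were 74 higher and 91 lower, and Mir30c-1 stood at 0.12 (adjusted exact binomial p = 0.143). With DESeq2 size factors Mir30c-2 stood at 0.02 (adjusted exact binomial p = 0.689). Over the alternatives, the ratio of Mir30c-2 ranged from -0.13 to 0.10 and that of Mir30c-1 from 0.05 to 0.28. Mir30b stayed between 0.45 and 0.68, Mir30a between -0.62 and -0.39, Mir30e between -0.61 and -0.38, and Mir30d between -1.06 and -0.83.

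**Figure D4:**
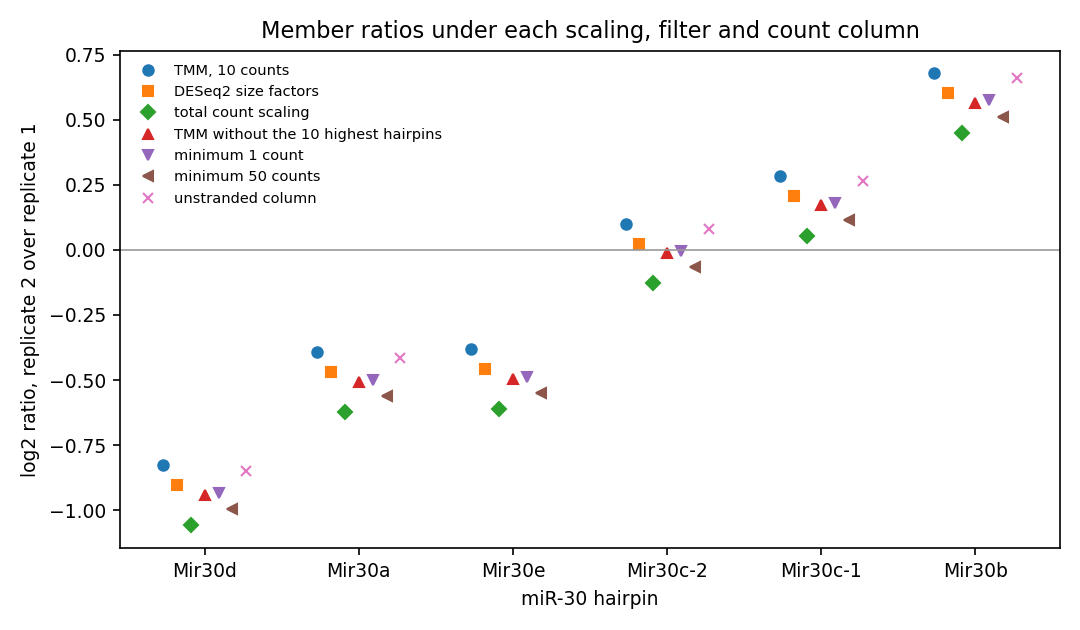
Log2 ratio of replicate 2 over replicate 1 for each member under 7 combinations of scaling, count minimum and count column, 1 marker each. Mir30d, Mir30a and Mir30e stay below 0 and Mir30b above it, Mir30c-2 falls on either side, and Mir30e has no marker for the unstranded column, where it is listed at 0.

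How the family's differences compared with the spread of hairpins between these animals depended on how that spread was estimated. The biological coefficient of variation, the spread beyond counting error, was 0.467 over the tested hairpins by edgeR's common dispersion, which corresponds to an SD of 0.95 for a log2 ratio between 2 animals, and all 6 members lay within it. Mir30d passed beyond the SD with total count scaling (-1.06 against an SD of 0.97) and with a minimum of 50 counts (-0.996 against 0.960). With DESeq2's size factors and the median of its dispersions the SD was 0.47, and Mir30d (-0.90), Mir30b (0.60) and Mir30a (-0.47, just past it) lay outside. With TMM scaling, the members' percentiles among all ratios ran from 17.6 for Mir30d to 78.1 for Mir30b, and 4 of 6 fell between the quartiles of -0.53 and 0.57.

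**Figure D5:**
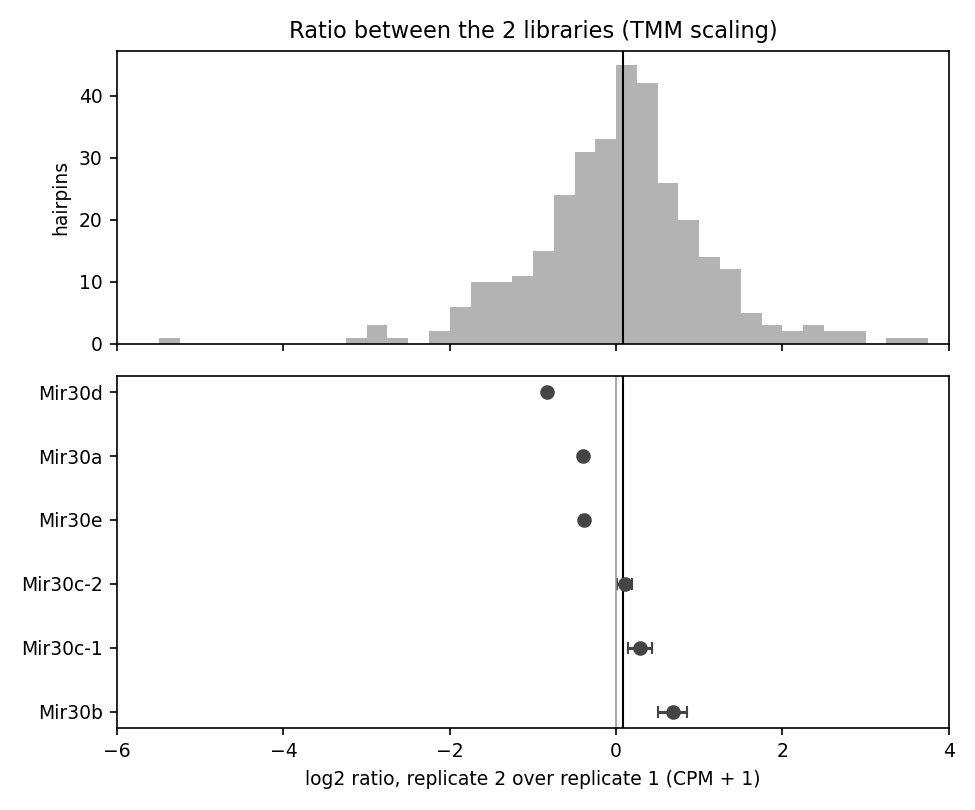
Upper panel, number of tested hairpins by log2 ratio of replicate 2 over replicate 1 with TMM scaling. Lower panel, the 6 members with their 95% exact intervals for counting error; black lines mark the median of all hairpins at 0.09. Members run from -0.83 for Mir30d to 0.68 for Mir30b, inside the bulk of the distribution.

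Summed by pair, all 3 places in the genome were lower in replicate 2. Mir30d with Mir30b had 52184 and 33008 counts, a log2 ratio of -0.81 (interval -0.83 to -0.79). Mir30a with Mir30c-2 had 26808 and 23182, a log2 ratio of -0.36 (-0.38 to -0.33, exact binomial test adjusted over 3 pairs, p = 1.82e-166). For Mir30e with Mir30c-1, 15526 and 13511 counts gave -0.35 (-0.38 to -0.31, adjusted exact binomial p = 8.77e-93). The sums follow their dominant hairpins, and without regard to strand, where Mir30e is lost, the Nfyc pair reversed to 0.26.

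Opposite ratios of genomic neighbours were common elsewhere too. The members of the 3 miR-30 pairs had ratios of opposite sign, for Mir30a and Mir30c-2 under only some scalings, and differed by 0.50 (Mir30a and Mir30c-2), 0.67 (Mir30e and Mir30c-1) and 1.51 (Mir30d and Mir30b). Over the 605 other pairs of tested hairpins on 1 strand within 50 kb, the median difference was 0.81 (quartiles 0.39 and 1.42), and 41.7% had opposite signs. The more abundant hairpin had the lower ratio in 3 of 3 miR-30 pairs and in 51.2% of the others. Many of the other pairs belong to a few large clusters, and over the 102 that are adjacent the median was 0.66.

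The miR-29 and miR-181 families, which also lie at several places, gave other patterns, and whether they differ from miR-30 was not tested. All 4 miR-29 hairpins passed as lower in replicate 2, from -1.53 for Mir29b-2, with only 33 and 11 counts, to -0.49. Among the 6 of miR-181, 3 were lower and 1 higher, from -1.91 for Mir181b-2 to 0.34 for Mir181a-1, and 2 did not pass. Over all tested hairpins, 26.4% passed as lower and 36.2% as higher. Reads that match several places are left out of these counts too.

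By level, the hairpins ranked directly above and below each member were Mirlet7d and Mir191 (Mir30d), Mir149 and Mir125a (Mir30a), Mir100 and Mir27b (Mir30e), Mir484 and Mir486 (Mir30c-2), Mir451a and Mir125b-1 (Mir30c-1), and Mir874 and Mir142 (Mir30b). Their log2 ratios ran from -1.02 for Mir125b-1 to 1.13 for Mir100. Those of the members, which are fewer, ran from -0.83 to 0.68, and a range widens with the number of values.

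Outside the family, the hairpins of at least 1000 CPM whose ratio was closest to that of the summed members (-0.59) were Mir126a (-0.60), Mir423 (-0.60) and Mir29a (-0.57), a likeness over only 2 libraries. Mir126a, the endothelial marker, fell from 108082 to 60950 CPM. Both smooth muscle markers, Mir143 and Mir145a, were higher in replicate 2 by the test, and their sum stood at 29354 and 48287 CPM. The 8 heart muscle markers summed to 4496 and 8311 CPM, without any reads that match several places. Of the 4 tested, Mir208a was higher, Mir208b and Mir1a-2 were lower and Mir499 did not pass. Blood markers summed to 1126 and 795 CPM, a sum over hairpins that went opposite ways. Of the 4, Mir142 (0.76) and Mir223 (1.03) were higher and Mir451a (-0.98) and Mir144 (-1.74) were lower. The part of these markers in the miR-30 differences was not tested. The 5 epithelial markers summed to 231 and 209 CPM, with Mir200a at 2 and 4 counts, and 1 of 4 tested was higher and 1 lower.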

How the data were processed

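MicroRNA-seq was made from heart RNA of 2 animals of 1 group. What the authors deposited are unnormalised read counts for every hairpin, on either strand, on the hairpin's strand and on the opposite one; per the file headers of the accompanying notes, the authors used mm10 and GENCODE M21. For aligner and counter: not given in the sources used here.

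From here, the column for the hairpin's strand was used, and rows for unassigned reads stayed out of CPM. All 2202 identifiers matched GENCODE M21. Hairpin counts summed to 2050498 and 2661090. TMM factors and dispersion came from edgeR 4.0.16 in R 4.3.3, with DESeq2 1.42.0 as an alternative. Exact binomial and Fisher's exact tests used scipy 1.17.1, with Benjamini-Hochberg adjustment and a pseudocount of 1 CPM in log2 ratios, and were tested on simulated data. Intervals of odds and pairwise ratios are normal approximations on the log scale; PCR copies were not told apart.

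Named hairpins are the members, hairpins with their seed, the 3 of at least 1000 CPM closest in ratio, fixed marker lists and 2 comparison families. The rule also took the hairpins ranked next to each member. Members and lists were chosen with earlier results of these data known. Mir30f was added after its values were seen. Alternatives covered the count column, count minimum, scaling, denominator, pseudocount, hairpin length, left-out hairpins and replicates, and neighbour distance.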

Additional observations from a re-analysis of the deposited data

Results flagged for a closer look

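Reads matching several places lie outside the hairpin counts and numbered 1925044 in replicate 1 and 2686901 in replicate 2. They are given because they exceed the 3 counts that a count of 0 allows, which does not show that they are unusual. How many come from the arm shared by Mir30c-1 and Mir30c-2 was not tested.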

How the results depend on the processing

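Under other settings, 131 values kept their direction and side of the threshold or moved by less than the spread between replicates, 23 moved further, 5 changed direction and 5 no longer passed. With all reads as denominator the family share was 1.48%. In the unstranded column, which lists Mir30e at 0, pair shares were 37.1% (Mir30a with Mir30c-2), 61.7% (Mir30d with Mir30b) and 1.2% (Mir30e with Mir30c-1), the share of Mir30e in its pair was 0%, and the Nfyc pair's log2 ratio was 0.26. Per base of hairpin, the shares of the Mir30a and Mir30e pairs were 34.4% and 15.6%. The ratio of Mir30c-2 turned to -0.0035 with at least 1 count in either library, -0.067 with at least 50 counts, -0.13 by total count and -0.012 without the 10 highest hairpins. Hairpins called higher numbered 74 with at least 50 counts and 76 by total count. With DESeq2 the coefficient of variation was 0.230, a median over hairpins rather than a common value, and 3 of 6 members, not 6, lay within the SD it gives. Leaving out a replicate gave the other library's value, 2.62% to 4.61% for the family share. Adjacent pairs were chosen as an alternative after seeing the data. No paired analysis was possible because there is only 1 group. Depth limits Mir384 and Mir30f, which lie at or under 3 counts.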
